A study of Mus musculus with 12 samples.

Results

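The 46 genes described here lie on mouse chromosome 8 and are mostly housekeeping or widely expressed genes. Among them are also Junb, an immediate early gene, and Nfix, whose RNA was low. Of that chromosome 1027 genes could be tested, and 20486 genes in all. The 46 were chosen by name, with their Trim71-/- ratios already known. They were taken as genes that mostly rose by about 1.5-fold in Trim71-/- embryonic stem cells. The question put to them was which genes fell short of, and which exceeded, the 1.5-fold that 3 gene copies against 2 would give if RNA followed the copies. Because the Trim71-/- ratios chose the genes, these ratios are given as a description with no test. DNA copy number was not measured in these libraries, so an extra chromosome and any other block-wide difference cannot be told apart here.

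The series measured total RNA of 129S6/SvEvTac mouse embryonic stem cells kept on gelatin with serum and LIF, a cytokine that maintains the undifferentiated state. Its title places the work in the question of how different RNA-silencing routes meet on GW182/Tnrc6 proteins, the partners of Argonaute. The 4 groups of 3 libraries were Cas9 Ctrl, Cas9 Trim71-/-, Tnrc6a Ctrl and Tnrc6a Trim71-/-, where Cas9 or Tnrc6a is the overexpressed construct and Trim71 encodes a TRIM-NHL protein that binds RNA. Per the growth protocol, all cells, controls included, carried a reporter (yGlob, GFP_5xT71BS) and a stably transfected FLAG-Cas9 with blasticidin resistance. The promoter of the Tnrc6a construct, and how many clones stand behind a genotype, are not given in the labels used here. The libraries of a group came from triplicate wells, so every p-value measures the spread between wells.

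For 9 of the 12 libraries the free-text line on input RNA names other cells than the title: HA-AVI-Tnrc6a for Cas9 Trim71-/-, Ago2-/- for Tnrc6a Ctrl and Upf1-/- for Tnrc6a Trim71-/-. Groups follow the titles. Ago2 RNA stood at 279.6 ± 37.4 CPM in Tnrc6a Ctrl and 332 ± 22.5 in Cas9 Ctrl, and Upf1 RNA at 229.8 ± 1.88 in Tnrc6a Trim71-/- and 160.5 ± 5.27 in Tnrc6a Ctrl (mean ± SD, n = 3). Neither was near 0, and since RNA can persist after a knockout these levels do not settle which label holds. Upf1 itself lies on chromosome 8, and its Trim71-/- ratios were 1.39 with Cas9 and 1.43 with Tnrc6a, close to the medians of that chromosome given below. Trim71 RNA, the targeted gene, was 306 ± 14.2 CPM (counts after scaling by library size; mean ± SD, n = 3) in Cas9 Ctrl and 275 ± 14.2 in Cas9 Trim71-/-, and at 264 ± 11.9 and 240.4 ± 9.13 with Tnrc6a, so its level does not check the genotype labels. Tnrc6a RNA stood at 132 ± 1.31 and 145 ± 9.79 CPM in the Cas9 groups and at 3317 ± 120 and 3622 ± 126 CPM in the Tnrc6a groups. Total counts ran from 20758151 to 31552915 per library. All 8 embryonic stem cell markers looked at were detected in every group, with a summed level of 5693 to 5759 CPM in Cas9 Ctrl, 6268 to 6386 in Cas9 Trim71-/-, 3459 to 3473 in Tnrc6a Ctrl and 4743 to 4826 in Tnrc6a Trim71-/-. The 8 endoderm markers summed to 84.0 to 91.2, 13.2 to 16.0, 194 to 201 and 25.6 to 30.8 CPM in the same order, and the 6 markers of the 2-cell-like state to 13.9 to 16.1, 0.922 to 1.64, 326 to 333 and 119 to 130.

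None of these marker genes was at 0 in any group. Both lists were thus lower in Trim71-/- and higher with Tnrc6a, and their part in the results below was not tested. Of 7 fibroblast markers 3 were in the table, with a summed level of 7.44 to 17.4 CPM over the 12 libraries. In bulk RNA, fewer cells of a type and less RNA per cell cannot be told apart, and a ratio between 1 and 1.5 can also be an average over cells that differ.

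Gain of a whole chromosome raises the template for every gene on it, and for most genes RNA follows. Some genes depart from their copy number through feedback, limiting regulators or responses to a changed cell state, and subunits made in excess of their complex are usually removed as protein. Extra copies of chromosome 8 are a well-known abnormality of cultured mouse embryonic stem cells. The genes below encode parts of the replication machinery, chromatin regulators, repair enzymes, splicing and export factors, proteasome and ubiquitin ligase subunits, membrane proteins, redox enzymes and signalling proteins.

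The sequences just upstream of 4 genes are shown because these genes contrast the lower end of the pattern with its centre: Irs2 and Junb did not show a 1.5-fold ratio with Cas9, while Tfdp1 and Mcm5 lay close to it and fell with Tnrc6a. Each is the 250 bases before the annotated start, written 5′ to 3′ on the gene's strand, from RefSeq (GRCm38.p6). Irs2 lies on the minus strand at chr8:11008930-11009179, Junb on the minus strand at chr8:84978749-84978998, Tfdp1 on the plus strand at chr8:13338501-13338750 and Mcm5 on the plus strand at chr8:75109259-75109508. Capitals mark matches to the motifs searched.
Irs2: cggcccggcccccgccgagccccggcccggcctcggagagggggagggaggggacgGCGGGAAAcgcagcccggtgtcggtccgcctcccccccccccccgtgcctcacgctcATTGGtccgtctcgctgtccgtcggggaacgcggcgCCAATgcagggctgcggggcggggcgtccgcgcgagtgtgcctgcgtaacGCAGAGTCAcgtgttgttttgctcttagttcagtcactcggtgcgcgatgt
Junb: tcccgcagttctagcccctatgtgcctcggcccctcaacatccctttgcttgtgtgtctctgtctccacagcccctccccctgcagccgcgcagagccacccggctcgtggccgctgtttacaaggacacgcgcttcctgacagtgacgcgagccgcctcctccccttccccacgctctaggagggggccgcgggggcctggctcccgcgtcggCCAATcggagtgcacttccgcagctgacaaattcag
Tfdp1: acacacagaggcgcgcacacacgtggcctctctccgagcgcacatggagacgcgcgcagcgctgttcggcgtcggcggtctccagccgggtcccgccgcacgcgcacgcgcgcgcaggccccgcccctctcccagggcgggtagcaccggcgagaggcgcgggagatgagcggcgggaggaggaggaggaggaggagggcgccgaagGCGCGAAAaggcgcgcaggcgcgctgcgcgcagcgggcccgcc
Mcm5: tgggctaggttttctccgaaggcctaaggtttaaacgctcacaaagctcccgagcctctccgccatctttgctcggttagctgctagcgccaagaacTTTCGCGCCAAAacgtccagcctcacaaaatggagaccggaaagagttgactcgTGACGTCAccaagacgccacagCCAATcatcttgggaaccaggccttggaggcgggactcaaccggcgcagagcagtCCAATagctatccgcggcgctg

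A window of 300 bases, these 250 and the first 50 after the start, was available for 34 of the 46 genes. On both strands it was searched for an E2F motif (TTTCCCGC, TTTGGCGC, TTTCGCGC or TTTGCCGC), the NF-Y motif (CCAAT), the antioxidant response element (TGACNNNGC), the AP-1 motif (TGANTCA), the CRE (TGACGTCA) and the TATA box (TATAAA). The E2F motif stood in 5 of the 34 windows, those of Brd7, Gins3, Irs2, Mcm5 and Tfdp1, and in 2.32% of 27025 windows of all genes. The NF-Y motif stood in 11 of 34 (37.9% of all windows), the antioxidant response element in 4 (12.5%), the TATA box in 6 (14.2%), the CRE in 2 (1.88%) and the AP-1 motif in 1 (7.93%). In Mcm5 the 2 E2F matches overlap, and a CRE and 3 NF-Y matches stand in the window, the last of them after the start. In Junb the NF-Y match lies 36 bases before the start and TATAAA begins at the start itself, outside the stretch printed. A match is a stretch of letters only, and binding was not measured.

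The members' Trim71-/- ratios centred on 1.5. Of the members 45 had a mean of 5 CPM or more. With Cas9 their median ratio of Trim71-/- to control CPM was 1.5, between quartiles of 1.38 and 1.56, and with Tnrc6a it was 1.48, between 1.37 and 1.61. The 619 other chromosome 8 genes at that level had medians of 1.40 and 1.42, and 11348 genes of the other autosomes 0.991 and 1.00. The 619 include pseudogenes, some of them, such as Rpl19-ps11 and Gpi-ps, with ratios near those of the other autosomes. How far these lowered the chromosome 8 medians was not tested. Each of the 6 Trim71-/- libraries, set against the mean of its controls, gave a member median between 1.46 and 1.52, while the 6 control libraries gave 0.996 to 1.01. The libraries were thus alike, and no single well carried the shift. In 44 of 46 members with Cas9, and in 45 of 46 with Tnrc6a, every Trim71-/- library lay above every control library. Among all genes tested 20.7% did so with Cas9 and 25.5% with Tnrc6a, and since these ratios chose the members the difference from that share says nothing further. The exceptions were Irs2 and Junb with Cas9 and Nfat5 with Tnrc6a.

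A member was placed against 1.5 by its 18 library pairs, 9 with each construct, each pair being 1 Trim71-/- library over 1 control library. Of the 46 members, 10 fell short (all 18 pairs under 1.5), 9 exceeded (all 18 above) and 27 lay between. A class also depends on the spread between wells: Prdx2 (ratios 1.39 and 1.35) lay between, while Piezo1 (1.34 and 1.41) fell short. Among the 664 chromosome 8 genes of at least 5 CPM, 32.8% fell short and 9.64% exceeded. These 664 include the pseudogenes too, and the chromosome 8 median used next is taken over the same genes. The rule does not allow for 1.5 being a round value: set instead against the median of chromosome 8 genes in the same groups (1.41 and 1.43), 6 members fell short and 15 exceeded. The members just outside the lower limit were Gins2 and Sin3b, whose highest pairs gave 1.51 and 1.52, and the member just inside it was Wrn, at 1.47. At the upper limit Tfdp1 stayed outside with a lowest pair of 1.498, and Smarca5 and Gab1 were inside with 1.502 and 1.509. Classes this close to 1.5 can depend on the scaling. With relative log expression factors the log2 Trim71-/- change with Tnrc6a shifted by a median of -0.028 over all genes. With trimmed mean factors that left out chromosome 8 genes the change with Cas9 shifted by 0.018.

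**Figure D1:**
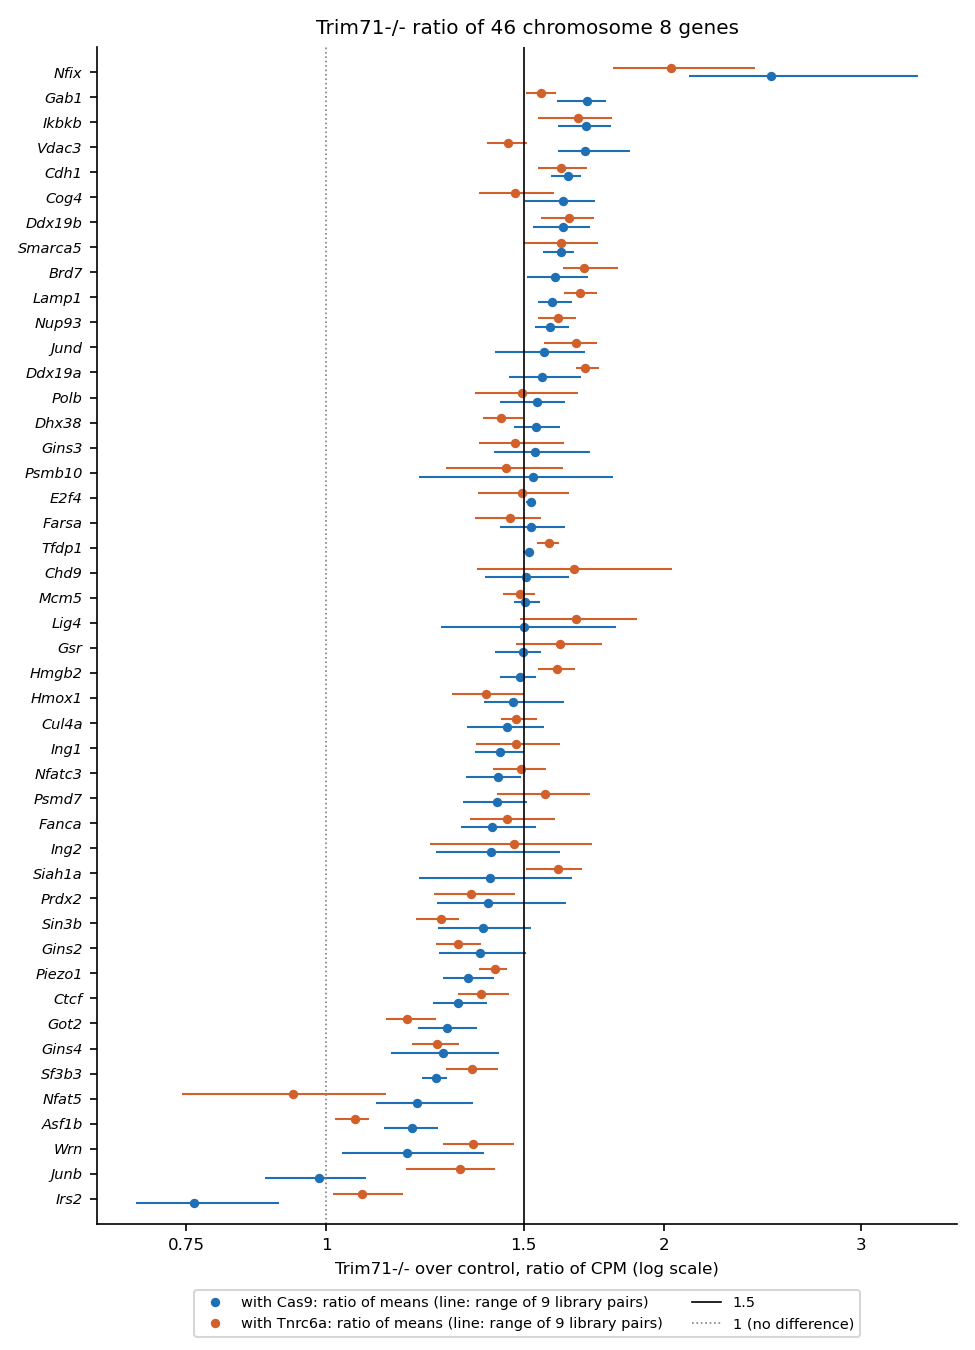
Ratio of Trim71-/- to control CPM (horizontal log axis) for each of the 46 genes, with Cas9 in blue and with Tnrc6a in orange. Points are ratios of 3-library means and lines span the 9 library pairs, so the 10 genes at the bottom end and the 9 above 1.5 can be read against the solid line.

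Members near 1.5 lay along the whole chromosome. In 10 consecutive stretches of 13 megabases, the median over chromosome 8 genes ran from 1.31 to 1.54 with Cas9 and from 1.32 to 1.62 with Tnrc6a, and every stretch held at least 1 member. Of 10 pairs of members within 100000 bases of each other, some were alike and others were not. Hmox1 and Mcm5, 8979 bases apart, had ratios of 1.47 and 1.5 with Cas9, and Ddx19a and Ddx19b, 5387 bases apart, had 1.56 and 1.63. Prdx2 and Junb, which overlap on opposite strands, had 1.39 and 0.986 with Cas9 but 1.35 and 1.32 with Tnrc6a. Sf3b3 and Cog4, which also overlap, had 1.25 and 1.63 with Cas9 and 1.35 and 1.48 with Tnrc6a.

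**Figure D2:**
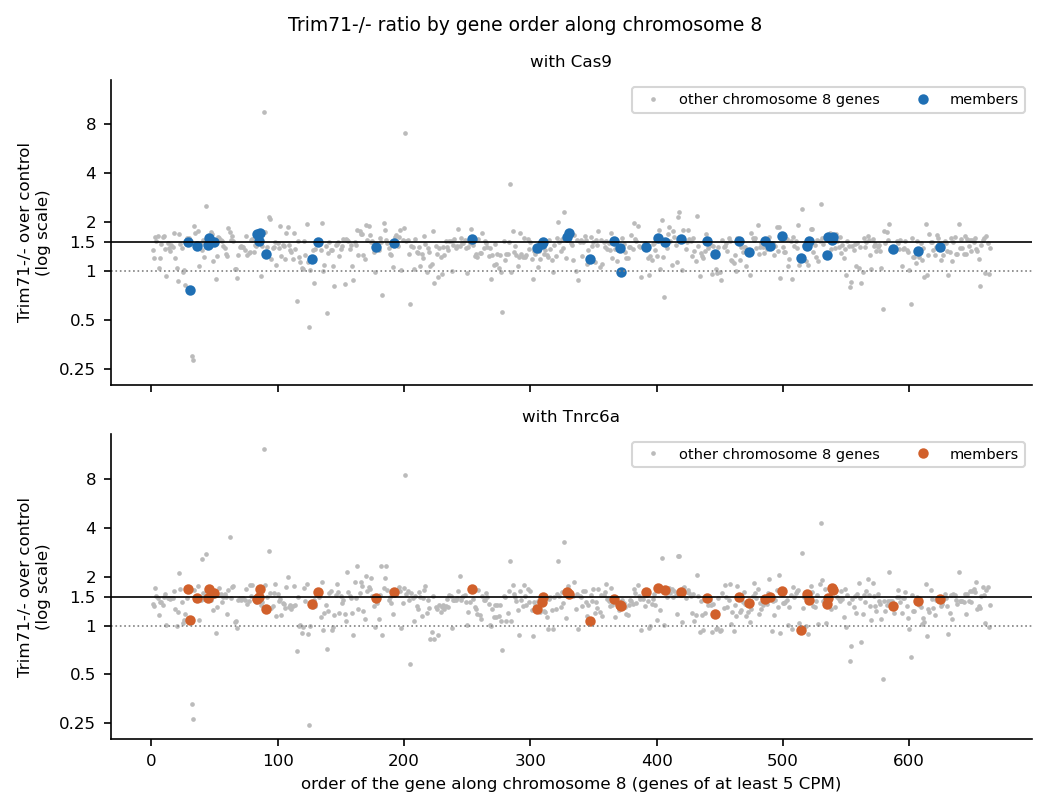
Ratio of Trim71-/- to control CPM (vertical log axis) of 664 chromosome 8 genes of at least 5 CPM in their order along the chromosome, with Cas9 above and Tnrc6a below. The 45 members drawn as large points lie mostly near the solid line at 1.5 over the whole length, with Irs2 the lowest member with Cas9 and Nfat5 with Tnrc6a.

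The ratio was lower in the lowest quartile of level: chromosome 8 genes of 5.10 to 19.2 CPM had median ratios of 1.31 and 1.32, and the 3 higher quartiles 1.42 to 1.44 with Cas9 and 1.43 to 1.46 with Tnrc6a. Of the members of at least 5 CPM, 25 lay in the highest quartile and 1 in the lowest. Per kilobase, the members ran in Cas9 Ctrl from 0.223 RPKM (the length-scaled unit, as the authors deposited it) for Nfix to 156 for Lamp1. The members' ratios with Cas9 and with Tnrc6a share no library. Over the 46 genes their log2 values had a Pearson correlation of 0.769, and 0.731 without Nfix, given as a description. In 41 of 46 genes they differed by under 0.2 on the log2 scale.

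The replication members gave 1 shortfall among 4. Mcm5, a subunit of the replicative helicase, stood at 519, 516 and 510.1 CPM in Cas9 Ctrl and 764, 769 and 792 in Cas9 Trim71-/-. With Tnrc6a it stood at 439, 445 and 441 CPM in control and 658, 640.4 and 673 in Trim71-/- cells. The wells of each group lay close together, and the ratios were 1.5 (pairs from 1.47 to 1.55) and 1.49 (1.44 to 1.53). Gins2, Gins3 and Gins4 encode 3 of the subunits of GINS, the complex that joins Mcm proteins and Cdc45 in the active helicase, and their ratios were 1.37, 1.54 and 1.27 with Cas9 and 1.31, 1.47 and 1.26 with Tnrc6a. Gins4 fell short: it stood at 82.8, 76.3 and 86.4 against 98.6, 105 and 109 CPM with Cas9, and at 73.6, 70.2 and 71.2 against 90.3, 87.7 and 92.1 CPM with Tnrc6a. Its groups did not overlap with either construct, yet no pair reached 1.5 (highest 1.43). Exons of Gins2 overlap those of Gse1 on the opposite strand over 67.3% of their length, and without a stated strand setting of the counting the reads of such pairs cannot be told apart.

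E2f4, which represses cell cycle genes together with pocket proteins, and Tfdp1, the DP1 partner that E2F proteins need to bind DNA, both had 3 closely spaced libraries in each Cas9 group. Tfdp1 stood at 179, 177 and 177 CPM in Cas9 Ctrl and 270.3, 269 and 268 in Cas9 Trim71-/-, and at 99.2, 101 and 97.9 against 156, 158 and 158 with Tnrc6a. E2f4 stood at 192, 194 and 192 against 293, 295 and 294 CPM with Cas9, and at 109, 119.5 and 123 against 179, 168 and 178 with Tnrc6a. Their ratios were 1.52 and 1.52 with Cas9 and 1.58 and 1.49 with Tnrc6a, the pairs of E2f4 spanning 1.51 to 1.54 with Cas9 and 1.36 to 1.65 with Tnrc6a. Of the 50-base windows of Tfdp1 transcripts, 16.8% also occur in another gene, Gm7390, so part of its reads may be uncertain.

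Of 9 chromatin genes, Asf1b and Ctcf fell short and Smarca5 and Brd7 exceeded. Asf1b, a chaperone that hands histones to assembly factors, stood at 42.6, 41.8 and 44.7 CPM in Cas9 Ctrl and 52.6, 50.4 and 51.1 in Cas9 Trim71-/-, and at 50.4, 49.5 and 50.5 against 54.0, 51.4 and 54.0 with Tnrc6a. Every Trim71-/- library was higher, but the ratios were only 1.19 (log2 SE 0.05) and 1.06 (SE 0.05). Ctcf, the architectural protein that bounds chromatin loops, had ratios of 1.31 and 1.37, its highest pair 1.46. Smarca5, the ISWI remodelling ATPase, stood at 324, 320.3 and 338 against 528, 533 and 528 CPM with Cas9 and at 306, 316 and 333 against 511, 535 and 499.7 CPM with Tnrc6a. Brd7, a bromodomain subunit of the PBAF remodeller, stood at 115, 106 and 113 against 173, 179 and 182 CPM with Cas9 and at 118, 112 and 118 against 194, 204 and 192 CPM with Tnrc6a. Both were near 1.6 in each background: 1.62 and 1.62 for Smarca5, 1.60 and 1.70 for Brd7. For Smarca5, 28.2% of the 50-base windows are shared with other genes. The remaining chromatin genes lay between: Chd9 (1.51 and 1.66), Hmgb2 (1.49 and 1.61), Ing1 (1.43 and 1.48), Ing2 (1.40 and 1.47) and Sin3b (1.38 and 1.27). Of the 50-base windows of Hmgb2, 18.7% are shared with other genes.

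Among 4 repair genes, Wrn, a RecQ helicase, fell short. It stood at 20.1, 20.3 and 20.5 CPM against 27.8, 22.9 and 21.2 with Cas9, and at 18.3, 18.2 and 18.2 against 24.0, 23.3 and 26.8 with Tnrc6a. Its Trim71-/- wells with Cas9 were spread widely, and the ratio of 1.18 (pairs 1.03 to 1.38) was less certain than the 1.35 (1.27 to 1.47) with Tnrc6a. Lig4, the ligase of end joining (1.5 and 1.67), Polb, the polymerase of base excision repair (1.54 and 1.49), and Fanca, a core subunit of the Fanconi anaemia ligase (1.41 and 1.45), lay between.

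The splicing genes split. Sf3b3, a subunit of the SF3b particle that recognises the branch site, fell short: it stood at 494, 499 and 491 CPM against 629, 607 and 620.0 with Cas9, and at 412, 424 and 439 against 562, 574 and 587 with Tnrc6a. All 18 pairs lay between 1.22 and 1.42. Dhx38, a helicase of the catalytic steps, had ratios of 1.54 and 1.43. The 4 genes of mRNA export, the nuclear pore and tRNA charging were all near or above 1.5. Ddx19b, a helicase that releases mRNA at the pore, stood at 82.8, 85.8 and 87.8 CPM against 140.2, 142 and 134 with Cas9, and at 85.5, 82.8 and 88.4 against 142, 137 and 143 with Tnrc6a. Its ratios of 1.63 and 1.65 exceeded 1.5 in all pairs, as did those of Nup93, a scaffold protein of the pore (1.58 and 1.61). The paralog Ddx19a had 1.56 and 1.70 and shares 28.1% of its windows with Ddx19b, so their separate values are uncertain. Farsa, a subunit of the phenylalanine tRNA ligase, had 1.52 and 1.46.

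None of the 4 protein degradation genes left the range between. Psmb10, a catalytic subunit of the immunoproteasome, had ratios of 1.53 and 1.45, Psmd7, a lid subunit of the proteasome, 1.42 and 1.57, Cul4a, a ubiquitin ligase scaffold, 1.45 and 1.48, and Siah1a, a RING ligase, 1.40 and 1.61. Of the membrane genes Lamp1 and Cdh1 exceeded and Piezo1 fell short. Lamp1, an abundant protein of the lysosome membrane, stood at 419, 426 and 404 CPM against 658, 659 and 670.5 with Cas9, and at 502, 513 and 525 against 876, 859 and 856 with Tnrc6a. Cdh1 (E-cadherin), which holds stem cell colonies together, stood at 217, 208 and 209 against 352, 347 and 345 CPM with Cas9 and at 289, 283 and 292 against 452, 484 and 465 CPM with Tnrc6a. The ratios were 1.59 and 1.68 for Lamp1 and 1.64 and 1.62 for Cdh1, with every pair at 1.54 or more. Piezo1, a mechanically gated channel, had 1.34 and 1.41 with a highest pair of 1.45, and 24.6% of its exon length overlaps Ctu2 on the opposite strand. Cog4, a Golgi tethering subunit, had 1.63 and 1.48.

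Of the redox and mitochondrial genes, Got2, the aspartate aminotransferase of mitochondria, fell short. It stood at 148, 157 and 143 CPM against 196, 190.1 and 190.1 with Cas9, and at 126, 117 and 125 against 147, 145 and 143 with Tnrc6a. The groups did not overlap, and the ratios were 1.28 (pairs 1.21 to 1.36) and 1.18 (1.13 to 1.25). Its pseudogene Got2-ps1 shares 16.8% of its 50-base windows. Hmox1, which breaks down haem (1.47 and 1.39), Gsr, glutathione reductase (1.5 and 1.62), Prdx2, a peroxidase (1.39 and 1.35), and Vdac3, a channel of the outer mitochondrial membrane (1.70 and 1.45), lay between.

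The 8 signalling genes and their transcription factors held both ends of the range. Irs2, an adaptor of the insulin and IGF receptors, was the only member that was lower in every Trim71-/- library with Cas9, at 19.1, 23.2 and 22.7 CPM against 17.3, 16.5 and 15.7. With Tnrc6a it stood at 38.9, 41.4 and 42.4 against 43.6, 43.0 and 45.6 CPM. Its ratios were 0.762 (log2 SE 0.07) and 1.08 (SE 0.06), the furthest of any member below 1.5 with Cas9. Junb, an AP-1 subunit and immediate early gene, stood at 35.1, 37.9 and 40.6 CPM against 35.8, 38.1 and 38.1 with Cas9, where the groups overlapped, and at 29.7, 33.1 and 30.2 against 42.0, 39.0 and 41.5 with Tnrc6a, where they did not. Its ratios were 0.986 (SE 0.06) and 1.32 (SE 0.06). Nfat5, the transcription factor of the response to high salt, stood at 52.8, 58.6 and 60.3 CPM against 71.3, 66.7 and 68.8 with Cas9 and at 52.9, 55.6 and 67.2 against 54.5, 49.9 and 59.8 with Tnrc6a. With Cas9 its groups did not overlap and the ratio was 1.20 (SE 0.08), while with Tnrc6a they overlapped and the ratio was 0.935 (SE 0.08).

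Nfix, Ikbkb and Gab1 exceeded. Nfix, a nuclear factor I protein, stood at 1.88, 1.77 and 1.28 CPM against 4.02, 4.30 and 3.96 with Cas9 and at 3.27, 2.91 and 3.48 against 6.28, 7.03 and 6.31 with Tnrc6a. Its ratios of 2.49 and 2.03 were the highest of all members, at the lowest level of any, with log2 SEs of 0.17 and 0.14. Ikbkb, the kinase that releases NF-kappaB from its inhibitor, stood at 43.0, 40.0 and 41.3 CPM against 71.0, 71.7 and 69.2 with Cas9 and at 34.5, 35.4 and 36.7 against 62.1, 60.1 and 56.8 with Tnrc6a, with ratios of 1.70 and 1.68. Gab1, a docking protein of receptor tyrosine kinases, stood at 244, 244 and 246 CPM against 433, 427 and 396 with Cas9 and at 237, 230.5 and 231 against 359, 369.5 and 357 with Tnrc6a. Its ratio was 1.71 with Cas9 and 1.55 with Tnrc6a. Nfatc3, a calcineurin-responsive factor (1.42 and 1.49), and Jund, an AP-1 subunit (1.57 and 1.67), lay between, and 52.6% of the exon length of Jund overlaps an antisense gene.

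**Figure D3:**
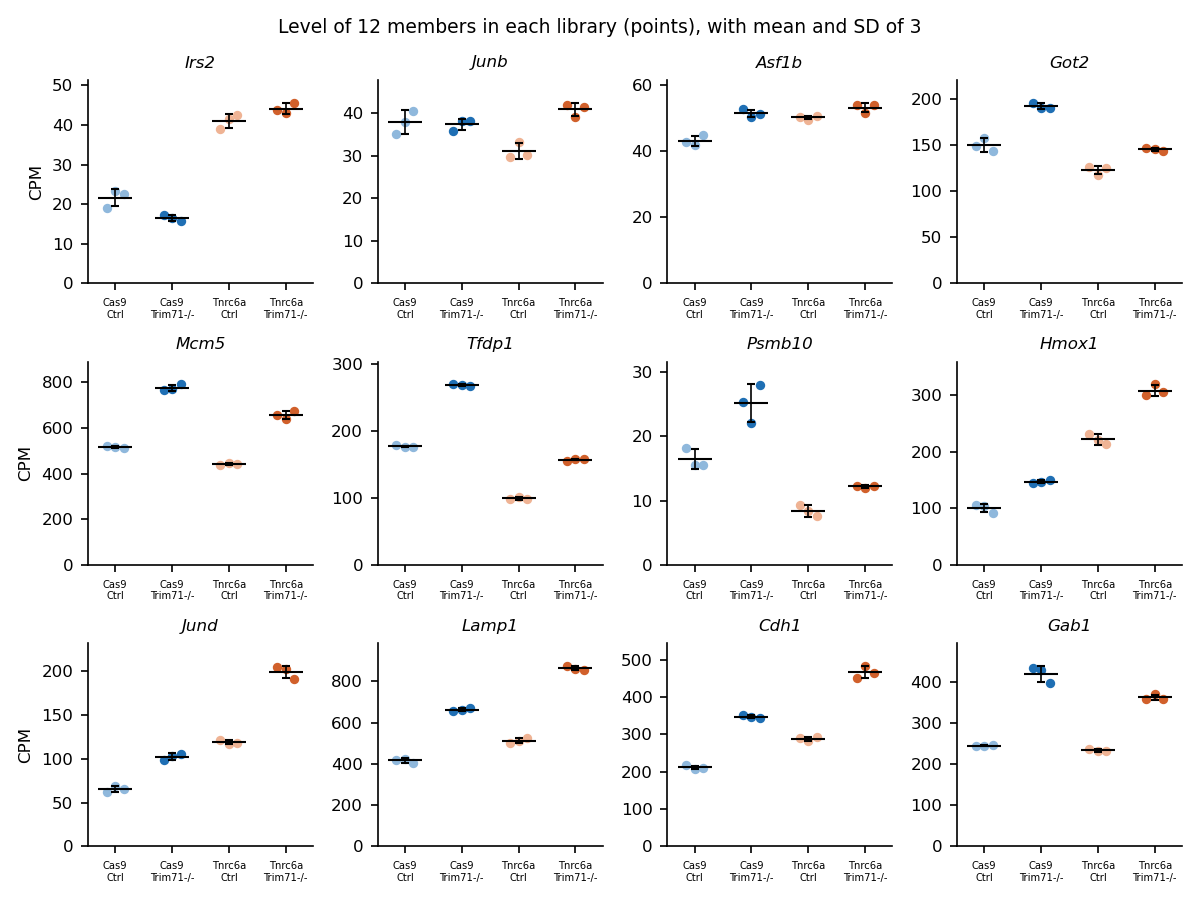
CPM of 12 members in each of the 12 libraries, with bars at the mean and SD of 3. Irs2 and Junb do not rise from Cas9 Ctrl to Cas9 Trim71-/-, Asf1b and Got2 rise by less than 1.5-fold, and the other 8 genes rise by 1.39-fold to 1.71-fold with either construct.

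Genes that work with the members but lie on other chromosomes were looked at in the same comparison. Tests are given here since these genes did not define the choice of members. Their lists were, however, also drawn up with earlier results of these data known. Of 167 such partners in 10 lists, 29 rose and 42 fell with Cas9 (edgeR, adjusted p under 0.05), where 17.1% of all genes rose and 19.1% fell. With Tnrc6a 40 rose and 33 fell, against 20.0% and 19.0% of all genes. The split between rises and falls depended on the fit. With Tnrc6a it was 35 and 44 with relative log expression factors, 34 and 44 in DESeq2, and 29 and 36, 30 and 36, and 30 and 40 without Tnrc6a Ctrl replicate 1, Tnrc6a Ctrl replicate 2 or Tnrc6a Trim71-/- replicate 2. With Cas9 it was 34 and 37 with trimmed mean factors that left out chromosome 8 genes. Their median ratios were 0.997 and 1.01, and 9 and 15 of them were above 1.25. The partners' calls are not read as differing from those of all genes. Of 11 replication partners 1 rose and 3 fell with Cas9, and 3 rose and 3 fell with Tnrc6a, the highest ratio being 1.16 with either construct. Mcm7 was lower with Cas9 (0.894) and Cdc45 with Tnrc6a (0.852), while the GINS subunit Gins1 stayed at 1.02 and 1.06 without passing the test (edgeR adjusted p = 0.794 and 0.292).

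Among 11 partners of E2f4 and Tfdp1, 3 rose and 5 fell with Cas9, and 3 rose and 2 fell with Tnrc6a. Rbl1, a pocket protein, rose 1.61-fold and 1.47-fold (log2 SE 0.06 in each, edgeR adjusted p = 5.67e-12 and 6.17e-10), and E2f1 fell to 0.703 and 0.759 of control (edgeR adjusted p = 2.32e-10 and 9.06e-08). Of 27 chromatin partners 6 rose and 5 fell with Cas9, and 8 and 9 with Tnrc6a. Hdac2, a deacetylase of the Sin3 complexes, rose 1.84-fold and 1.69-fold (log2 SE 0.04 in each, edgeR adjusted p = 2.37e-21 and 2.32e-19). The scaffold Sin3a fell to 0.796 of control with Cas9 and 0.865 with Tnrc6a. Of 21 repair partners 6 rose and 2 fell with Cas9 and 8 rose and 0 fell with Tnrc6a. Xrcc5, which acts with Lig4, rose 1.20-fold and 1.27-fold. Nhej1 fell to 0.772 of control with Cas9, a call lost without Cas9 Ctrl replicate 2. With Tnrc6a Nhej1 did not pass the test (edgeR adjusted p = 0.136). Of 12 splicing partners 2 rose and 3 fell with Cas9 and 4 rose and 1 fell with Tnrc6a. Dhx16 fell to 0.759 and 0.820 of control, and Sf3b2 rose 1.15-fold and 1.20-fold.

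In the remaining lists, 2 of 22 protein degradation partners rose and 7 fell with Cas9, and 2 and 5 with Tnrc6a. Dtl, the substrate receptor of Cul4 ligases, rose 1.42-fold and 1.44-fold, and Siah2 fell to 0.721 and 0.684 of control. The pore and tRNA list of 9 had 0 rises and 2 falls with Cas9 and 1 and 2 with Tnrc6a, with Gle1, the activator of Ddx19 helicases, at 0.865 and 0.819. Membrane partners (13) had 3 rises and 4 falls with each construct. N-cadherin (Cdh2) fell to 0.428 and 0.678 of control and Epcam to 0.631 and 0.819. Redox partners (20) had 4 rises and 3 falls, then 6 and 2, with Gclc, a glutathione synthesis enzyme, up 1.24-fold and 1.46-fold. Prdx6 fell to 0.737 and 0.868 of control and Gpx4 to 0.742 and 0.813. Signalling partners (21) had 2 rises and 8 falls, then 2 and 5, and Fosl1, an AP-1 partner of Junb, fell to 0.327 of control with Cas9 (edgeR adjusted p = 5.55e-07), at a low level. The 6 further partners that themselves lie on chromosome 8 had ratios of 1.22 (Cdt1) to 2.40 (Nqo1) with Cas9 and 1.34 to 2.80 for the same genes with Tnrc6a.

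**Figure D4:**
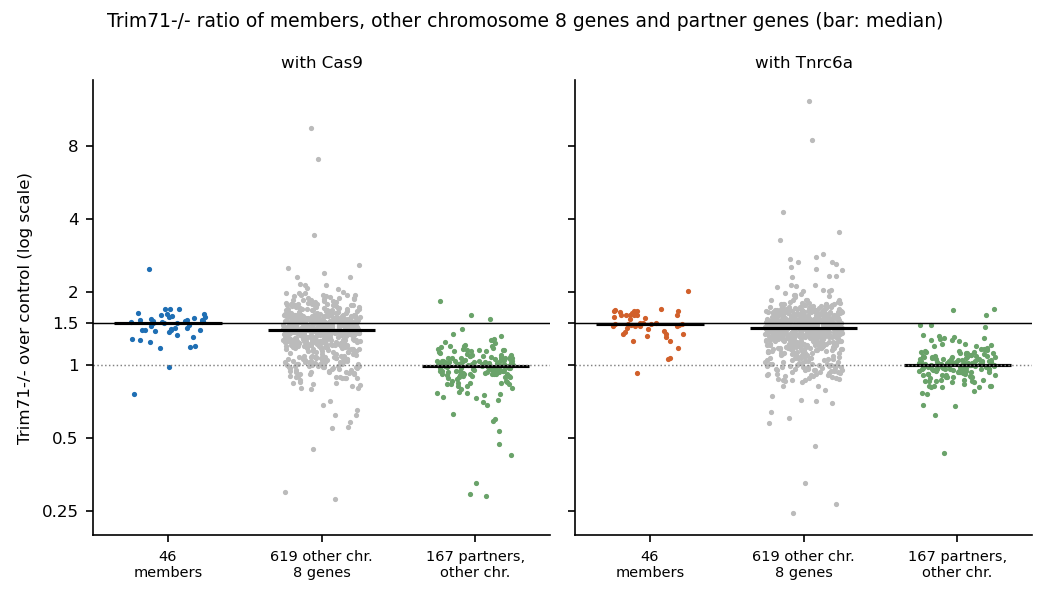
Ratio of Trim71-/- to control CPM (vertical log axis) of the 46 members, 619 other chromosome 8 genes of at least 5 CPM and 167 partners on other chromosomes, with Cas9 on the left and Tnrc6a on the right. Bars are medians, which stand at 1.5 and 1.48 for the members, 1.40 and 1.42 for the other chromosome 8 genes and 0.997 and 1.01 for the partners.

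The response to Tnrc6a was tested within each genotype, since this comparison did not choose the members, although it shares their libraries. In control cells 10 of 46 members rose and 19 fell with Tnrc6a (edgeR, adjusted p under 0.05), where 30.4% of all genes rose and 33.1% fell. In Trim71-/- cells 12 rose and 19 fell, where 32.0% and 30.9% of all genes did. The members' median log2 change was -0.07 and -0.05, beside -0.02 and 0.02 for all genes, and the members called in all, 29 and 31 of 46, are not read as differing from all genes. With relative log expression or upper-quartile factors, 15 rose and 18 fell in Trim71-/- cells. In both genotypes 9 members rose and 16 fell, 0 changed in opposite directions, 10 were called in only 1 genotype and 11 in neither. The 11 were Gins3, Polb, Wrn, Fanca, Ddx19a, Ddx19b, Cog4, Piezo1, Smarca5, Ing2 and Nfatc3. For these joint counts the shares over all genes were not computed, so nothing about the members is read from them.

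Hmox1 rose most in control cells, from 105, 104 and 91.8 CPM with Cas9 to 231, 221 and 212 with Tnrc6a, 2.21-fold (log2 fold change 1.15, SE 0.04, edgeR adjusted p = 2.21e-25). In Trim71-/- cells it rose from 145, 146 and 149.5 to 299, 319 and 304 CPM, 2.09-fold (log2 1.06, SE 0.04, edgeR adjusted p = 1.59e-24). The groups were far apart in both genotypes. Jund rose from 62.0, 69.4 and 64.9 to 122, 117 and 118 CPM in control cells, 1.82-fold, and from 98.2, 103 and 106 to 204, 202 and 191 CPM in Trim71-/- cells, 1.94-fold (edgeR adjusted p = 1.28e-20 and 9.13e-23). Irs2, with the library values given above, rose 1.89-fold in control and 2.67-fold in Trim71-/- cells (edgeR adjusted p = 7.23e-16 and 1.38e-21). Nfix rose 1.96-fold and 1.60-fold (edgeR adjusted p = 5.87e-06 and 4.49e-05), at 7.03 CPM or less in every library.

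Smaller rises were those of Sin3b, a corepressor scaffold, and Cdh1. Sin3b stood at 96.8, 95.7 and 94.4 CPM in Cas9 Ctrl and 142, 137 and 137 in Tnrc6a Ctrl, and at 122, 131 and 144 against 179, 171 and 176 CPM in Trim71-/- cells. That is 1.45-fold and 1.33-fold (edgeR adjusted p = 7.48e-14 and 6.84e-11), with no overlap. Cdh1 rose 1.36-fold and 1.34-fold (edgeR adjusted p = 2.37e-14 and 5.92e-14). Lamp1 rose 1.23-fold and 1.30-fold, Dhx38 1.23-fold and 1.15-fold, and Cul4a 1.10-fold and 1.12-fold. The call for Cul4a in control cells was lost without Cas9 Ctrl replicate 1 (edgeR adjusted p = 0.0941).

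Psmb10 fell most, from 18.2, 15.5 and 15.6 CPM in Cas9 Ctrl to 9.39, 8.34 and 7.56 in Tnrc6a Ctrl, 1.95-fold lower (log2 -0.97, SE 0.10, edgeR adjusted p = 9.46e-12). In Trim71-/- cells it stood at 25.4, 22.0 and 28.0 against 12.3, 12 and 12.3 CPM, 2.06-fold lower (log2 -1.04, SE 0.09, edgeR adjusted p = 1.08e-13). Tfdp1, which varied by only a few CPM between wells, was 1.78-fold lower in control and 1.71-fold lower in Trim71-/- cells (edgeR adjusted p = 6.3e-23 and 4.29e-22). E2f4 was 1.65-fold and 1.68-fold lower (edgeR adjusted p = 2.8e-19 and 3.62e-20). Both members of the E2F list thus fell in both genotypes, and no library of the Tnrc6a group overlapped its Cas9 group for either gene.

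Prdx2 stood at 139.5, 125 and 139.9 CPM with Cas9 and 92.5, 89.8 and 81.4 with Tnrc6a in control cells, and at 175, 184 and 204 against 115, 119.8 and 119.6 in Trim71-/- cells, 1.53-fold and 1.59-fold lower (edgeR adjusted p = 1.38e-11 and 1.7e-12). Gins2 stood at 60.8, 60.9 and 57.1 against 42.9, 43.9 and 41.6 CPM in control cells and at 76.8, 82.2 and 86.2 against 57.2, 55.0 and 56.0 CPM in Trim71-/- cells. It was 1.39-fold and 1.46-fold lower (edgeR adjusted p = 6.87e-11 and 7.54e-13), while Gins4 and Mcm5 were 1.14-fold to 1.18-fold lower and Gins3 did not pass the test (edgeR adjusted p = 0.639 and 0.806). Ing1, which reads histone methylation for the Sin3 complex, stood at 70.9, 76.3 and 73.5 against 51.9, 58.5 and 55.1 CPM in control cells and at 105, 104 and 106 against 80.8, 83.8 and 79.5 CPM in Trim71-/- cells. It was 1.33-fold and 1.29-fold lower (edgeR adjusted p = 3.72e-10 and 2.37e-09). Got2 was 1.22-fold and 1.32-fold lower (edgeR adjusted p = 7.38e-08 and 1.04e-11).

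Smaller falls in both genotypes were those of Nup93 (1.29-fold and 1.27-fold), Ctcf (1.22-fold and 1.17-fold), Gsr (1.20-fold and 1.11-fold), Ikbkb (1.17-fold and 1.18-fold), Sf3b3 (1.16-fold and 1.08-fold), Farsa (1.13-fold and 1.18-fold) and Psmd7 (1.18-fold and 1.07-fold). The fall of Psmd7 in Trim71-/- cells was the least secure: its edgeR adjusted p was 0.0311 and rose to between 0.0834 and 0.29 without Cas9 Trim71-/- replicate 2 or 3 or Tnrc6a Trim71-/- replicate 1 or 3. The adjusted p was 0.0662 with relative log expression factors, 0.134 with upper-quartile factors, 0.1 in DESeq2 and 0.068 in the edgeR fit on 6 libraries. Of the members called in 1 genotype, Asf1b rose and Junb, Chd9 and Hmgb2 fell in control cells, while Brd7, Siah1a and Lig4 rose and Vdac3, Gab1 and Nfat5 fell in Trim71-/- cells. Without Tnrc6a Ctrl replicate 1, Chd9 and Hmgb2 no longer passed (edgeR adjusted p = 0.0705 and 0.0545).

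**Figure D5:**
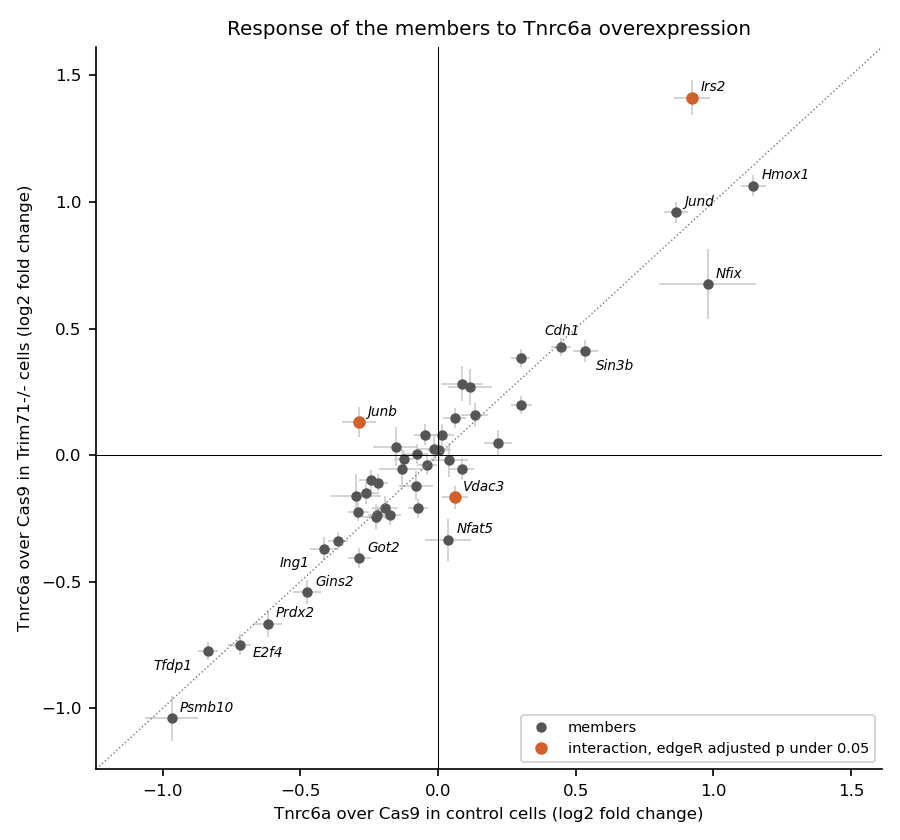
Log2 fold change of Tnrc6a over Cas9 in control cells (horizontal) and in Trim71-/- cells (vertical) for the 46 members, with bars for 1 standard error and a dotted line of equality. Hmox1, Jund, Irs2 and Nfix lie at the upper right, Psmb10, Tfdp1, E2f4 and Prdx2 at the lower left, and the 3 orange points are Irs2, Junb and Vdac3.

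The difference between the genotypes' responses to Tnrc6a, which equals the difference between the constructs' Trim71-/- ratios, is built from the ratios that chose the members, so it is given as a description. The edgeR interaction term was under the threshold for 3 of 46 members and for 6.93% of all genes, and nothing is read from that count. For Irs2 the Trim71-/- ratio was 0.762 with Cas9 and 1.08 with Tnrc6a, a log2 difference of 0.49 (SE 0.10). For Junb the ratios were 0.986 and 1.32, a log2 difference of 0.42 (SE 0.09). Both genes thus came closer to 1.5 with Tnrc6a, and both remained short of it.

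Vdac3 went the other way. It stood at 61.6, 60.8 and 57.4 CPM in Cas9 Ctrl and 99.1, 99.8 and 107 in Cas9 Trim71-/-, and at 61.4, 63.4 and 62.8 against 88.2, 92.7 and 91.3 with Tnrc6a. All 9 pairs were above 1.5 with Cas9 (1.61 to 1.86), and with Tnrc6a they spanned 1.39 to 1.51. The log2 difference was -0.23 (SE 0.06). Vdac3 was not among the 3 without Cas9 Ctrl replicate 3, Cas9 Trim71-/- replicate 3 or Tnrc6a Trim71-/- replicate 1 (log2 difference -0.20, -0.19 and -0.21), and 12.8% of the 50-base windows of Vdac3 are shared with other genes. Of the other members, Nfat5 had the largest log2 difference, at -0.37 (SE 0.12). It joined the 3 with limma-voom, with DESeq2, with a replicate block, and without Tnrc6a Ctrl replicate 1 or 2 or Tnrc6a Trim71-/- replicate 3.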

How the data were processed

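Stranded total RNA libraries of 12 samples were made with on-column DNase treatment, per the labels' protocols. The submitters' processing notes name bcl2fastq 2.20, STAR 2.7.3a and the builds GRCm38 and mm10; which tool counted the reads, on which annotation and with which strand setting is not given in the sources used here. Raw counts for each gene in each library, deposited by the authors, were analysed, and RPKM values made by the authors served only for levels per length and as an alternative for the median ratios. Total counts per library were 20758151 to 31552915.

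In R 4.3.3, edgeR 4.0.16 (filterByExpr, trimmed mean of M values, glmQLFit, glmQLFTest, two-sided) was fitted to all 12 libraries with 1 mean per group, with Benjamini-Hochberg adjustment over 20486 of the 20529 genes listed and a threshold of 0.05. CPM were scaled by the same factors, and a ratio is that of 2 group means. Coordinates of genes and overlaps are from GENCODE M21 (GRCm38). The pipeline was tested on simulated data. Libraries of a group differed by more than sampling noise, and each counted as 1 replicate well. This spread does not show whether the wells are independent replicates of a genotype.

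The members, the gene lists and the rules were chosen with earlier results of these data known. All members are named; library values are given for up to 8 members on each side of 1.5 and for the largest calls with Tnrc6a, up to 6 in each direction. From up to 4 partners per list with the largest called change, some are named, and Gins1 was added after its values were seen. Alternatives were other scaling factors (relative log expression, upper quartile, trimmed mean without chromosome 8 genes), no filter, limma-voom (limma 3.58.1), DESeq2 1.42.0, a replicate block, a fit on 6 libraries, the chromosome 8 median as reference and each library left out. Same-numbered libraries of different groups did not deviate together (18 correlations from -0.232 to 0.145), and no label ties a number to a day or batch, so the numbers were not taken to pair the libraries.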

Additional observations from a re-analysis of the deposited data

Results flagged for a closer look

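The results here are those whose Trim71-/- effect differed between the constructs by the edgeR interaction test, with the adjusted p over all genes; each value is the log2 effect with Tnrc6a minus that with Cas9. Among members these were Irs2 (0.49), Junb (0.42) and Vdac3 (-0.23), described above; since the ratios behind these 3 chose the members, they are no independent evidence. Among the partner genes with the largest called changes they were Fosl1 (1.23), Psmb9 (0.96), Nfatc2 (0.83), Atf3 (0.67), Cdh2 (0.67), Srxn1 (0.39), Epcam (0.38), G6pdx (0.34), Siah1b (0.26), Prdx6 (0.24), Gclc (0.23) and E2f3 (0.20). These partners were picked by the size of the same Trim71-/- effects, so they are no independent evidence either. In Fosl1, Psmb9, Nfatc2, Atf3, Cdh2, Epcam and Prdx6 both fitted effects were negative and the one with Tnrc6a was nearer 0. In Gclc and E2f3 both were positive. In G6pdx, Srxn1 and Siah1b 1 of the 2 effects did not pass the test, so no change of sign is read from them. In Psmb9 the effect with Tnrc6a did not pass either (log2 -0.14, edgeR adjusted p = 0.588). The fitted effects with Tnrc6a of Nfatc2 (-0.05) and Atf3 (-0.07) were also small, and their sign is not read. The adjusted p of Gclc (0.0499) and E2f3 (0.0494) lay close to the threshold.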

How the results depend on the processing

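Copy number was not measured, replicates were wells of what may be single lines, and reads of overlapping or near-identical genes could not be separated. No alternative reversed the direction of a named result that was called in the edgeR fit to all 12 libraries. The members' Trim71-/- ratios were not part of that check, and those near equality, such as Junb with Cas9 (0.986), can change side. The check covered only results already called in that fit, 63 of members and 77 of partners. These partners were those with the largest called changes. Tests not called in that fit could gain a call without being counted here. Of 1257 values for the members over all alternatives, 1243 still passed and 14 no longer passed. Of 1540 for the partners, 34 no longer passed. DESeq2 called 5 members for the interaction in place of 3, adding Gab1 and Nfat5; limma-voom and the replicate block added Nfat5 alone. With the median of chromosome 8 genes as reference, 6 members fell short and 15 exceeded, in place of 10 and 9. Leaving out each library in turn, the counts were 27 to 31 (control cells) and 31 to 32 (Trim71-/- cells) for Tnrc6a, 2 to 4 for the interaction, 10 to 13 short, 8 to 11 above, and the median ratios were 1.48 to 1.51 and 1.45 to 1.48. Called partners numbered 62 to 72 with Cas9 and 62 to 80 with Tnrc6a. With a replicate block the counts were 29, 32 and 4 members and 73 and 73 partners, so the block moved no count by over 1.5 times. Trimmed mean factors without chromosome 8 genes gave median ratios of 1.52 and 1.49. In the interaction over all genes, 67.5% of calls were higher, and 55.6% with relative log expression factors.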
